A study of Rattus norvegicus with 18 samples.

Results

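Serum vesicles were set against BCS-vacuolated cells in cultures of rat pXEN cells, 3 libraries of each, which are 6 of the 18 libraries of the series. Members were chosen by library title, and the comparison ran over all genes counted on the sequenced strand. pXEN cells, called rat XENP in the labels, are extraembryonic endoderm precursor cells, here from blastocysts of the WKY strain and labelled female. Serum vesicles were cell structures grown with the GSK3 inhibitor CHIR99021 in medium with serum, from passages 32, 35 and 49. The vesicle protocol gives CHIR99021 at 3 µM with murine LIF at 10 ng/ml in N2B27, a serum-free medium, so the dose used with serum is not clear. BCS-vacuolated cells were grown with 14% BCS, a supplement the labels do not spell out, and taken without a sort from passages 41, 32 and 42. The agent, the medium and the form of the culture all differ between these groups and cannot be told apart. The other 12 libraries held serum-free vesicles, CHIR99021-vacuolated cells with and without a sort (0.5 µM CHIR99021) and normal cells, 3 of each. The labels state independent preparation but not separate derivations, so a p-value measures the spread between these cultures.

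Extraembryonic endoderm is the first endoderm of the rodent embryo. It forms parietal endoderm, migratory cells that lay down the thick basement membrane of Reichert, and visceral endoderm, an absorptive epithelium with a brush border, large apical vacuoles and many lysosomes. Rat precursor cells are known to keep the pluripotency factor Pou5f1 beside the endoderm factors Gata4, Gata6 and Sox17. Inhibition of GSK3 stabilises β-catenin, which then acts with TCF/LEF proteins at Wnt target genes.

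Sequencing depth was 4.05 to 8.69 M counts on the sequenced strand in serum vesicles and 5.86 to 8.23 M in BCS-vacuolated cells. A pair of unnamed clone-style entries took 51.0 to 60.8% of them in serum vesicles and 45.2 to 49.3% in BCS-vacuolated cells. That left 1.92 to 3.40 M and 2.97 to 4.51 M counts for all other genes, of which genes with an Mt- symbol took 7.91 to 9.31% in serum vesicles and 3.29 to 4.32% in BCS-vacuolated cells. With those genes and the pair removed, 97.8% of the calls given below were kept, which does not test RNA quality. Values are CPM, counts scaled to a common library size, given in the order of replicates 1, 2 and 3. They are not divided by gene length, so levels are compared between groups and not between genes. Across the 6 libraries the first principal component took 76.6% of the variance and parted the groups. Serum vesicles 2 and 3 stood farthest apart within their group on the second component (9.30%, scores -39.6 and 34.2), and BCS replicate 2 stood apart from its group on the third (6.03%, score -35.7, against 16.1 and 15.7). Pearson's r between libraries, across genes that are not independent, was 0.937 to 0.958 within serum vesicles, 0.967 to 0.983 within BCS-vacuolated cells and 0.798 to 0.852 between them.

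Of 11503 genes tested, 6212 (54.0%) passed an adjusted p of 0.05 by edgeR's quasi-likelihood test, 3176 (27.6%) higher and 3036 (26.4%) lower in serum vesicles. At least 2-fold changes numbered 3223 (28.0%), 1937 higher (16.8%) and 1286 lower (11.2%). The CPM of the groups did not overlap for 56.2% of tested genes, and the median log2 fold change of all genes was 0.03. Among the 6212 called genes, 5708 had no overlap, so separate groups were usual for a called gene. Each list below is read against these shares of all genes. Fewer cells of a type and less RNA per cell cannot be told apart in these bulk cultures.

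**Figure D1:**
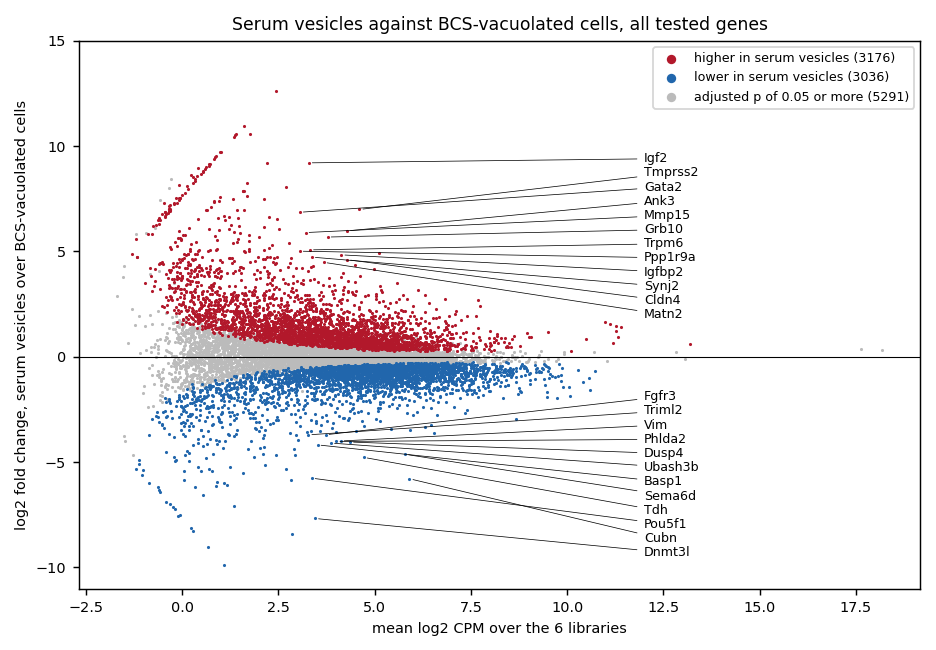
Each point is 1 of the 11503 tested genes, with the mean log2 CPM over the 6 libraries on the x axis and the log2 fold change of serum vesicles over BCS-vacuolated cells on the y axis. Red genes (3176) were higher and blue genes (3036) lower in serum vesicles at an adjusted p under 0.05. The labels are the 12 highest and 12 lowest named genes among those with no overlap and a mean log2 CPM of at least 3. The straight edges at low CPM are genes with no or almost no counts in a group, whose fitted fold changes are not exact.

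Genes given first were called, had no overlap between groups and had a mean log2 CPM of at least 3. This floor left out genes with no counts in a group, such as Cdx2 (mean log2 CPM 1.386, log2 fold change 10.51). Of the genes chosen, those that stood highest in serum vesicles were a growth factor, epithelial surface proteins and a transcription factor. Igf2, the imprinted fetal insulin-like growth factor, had 164, 282 and 126 CPM in serum vesicles, against 0.1696, 0.551 and 0.129 CPM in BCS-vacuolated cells (log2 fold change 9.204 ± 0.83, adjusted p = 8.59e-07). Igfbp2, which binds insulin-like growth factors, had 119, 176 and 88.3 CPM in serum vesicles, against 0.509, 10.02 and 1.68 CPM in BCS-vacuolated cells (log2 fold change 4.84 ± 0.57, adjusted p = 1.1e-05). All 3 vesicle libraries stood above all 3 BCS libraries for both genes, as the choice required, and BCS replicate 2 was the highest of its group for each. Without it the log2 fold change was 10.18 for Igf2 and 6.76 for Igfbp2. Grb10, an adaptor that dampens insulin and insulin-like growth factor receptors, had 125, 113 and 59.2 CPM in serum vesicles, against 1.87, 2.86 and 0.906 CPM in BCS-vacuolated cells (log2 fold change 5.68 ± 0.85, adjusted p = 9.69e-05).

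Tmprss2, a serine protease anchored in the surface of epithelial cells, had 239, 280.3 and 260.0 CPM in serum vesicles, against 2.04, 2.202 and 1.81 CPM in BCS-vacuolated cells (log2 fold change 6.99 ± 0.20, adjusted p = 5.43e-19). Mmp15, a membrane-type matrix metalloproteinase, had 59.8, 65.8 and 88.1 CPM in serum vesicles, against 0.848, 2.09 and 0.388 CPM in BCS-vacuolated cells (log2 fold change 5.895 ± 0.30, adjusted p = 1.53e-13; 6.86 without BCS replicate 2). Gata2, a zinc-finger transcription factor, had 74.7, 92.5 and 82.5 CPM in serum vesicles, against 0.678, 1.21 and 0.129 CPM in BCS-vacuolated cells (log2 fold change 6.86 ± 0.29, adjusted p = 2.07e-15; 7.75 without BCS replicate 2). Vesicles and BCS-vacuolated cells did not overlap in any of the 3, as the choice required.

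The rest of the 12 highest were membrane, scaffold and matrix genes. Ank3 (ankyrin-G), which ties membrane proteins to the spectrin skeleton, had 129.9, 133 and 177 CPM in serum vesicles, against 2.88, 1.76 and 2.46 CPM in BCS-vacuolated cells (log2 fold change 5.97). Cldn4, a tight junction claudin, had 118, 70.3 and 103 CPM in serum vesicles, against 3.56, 5.51 and 2.59 CPM in BCS-vacuolated cells (log2 fold change 4.61). Both were above all BCS libraries in every vesicle library, as the choice required. Trpm6, a magnesium channel of absorptive epithelia, stood at 55.3 ± 15.5 CPM in serum vesicles and 1.59 ± 0.343 CPM in BCS-vacuolated cells (SD, n = 3 each, as for all such means). Ppp1r9a, an actin-binding scaffold of protein phosphatase 1, stood at 46.9 ± 20.5 CPM in serum vesicles and 1.47 ± 0.891 CPM in BCS-vacuolated cells. Synj2, a phosphoinositide phosphatase of vesicle traffic, stood at 49.8 ± 5.56 CPM in serum vesicles and 1.87 ± 0.145 CPM in BCS-vacuolated cells. Matn2, an adaptor protein of the matrix, stood at 59.1 ± 4.37 CPM in serum vesicles and 2.57 ± 0.872 CPM in BCS-vacuolated cells. Their log2 fold changes were 5.07, 5.01, 4.73 and 4.48.

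Low genes were chosen by the same rule, whose floor left out Fgf10 (mean log2 CPM 2.848, log2 fold change -8.42). Of the genes chosen, the lowest in serum vesicles were led by a germ-line and stem-cell methylation cofactor. Dnmt3l, which has no catalytic activity and stimulates the de novo DNA methyltransferases, had 1.52, 0.696 and 0 CPM in serum vesicles, against 208, 73.01 and 234 CPM in BCS-vacuolated cells (log2 fold change -7.67 ± 0.61, adjusted p = 1.2e-07; -8.59 without vesicle replicate 1). BCS replicate 2 was the lowest of its group and still far above every vesicle library. Pou5f1, the pluripotency factor, had 1.52, 1.53 and 0.692 CPM in serum vesicles, against 71.6, 70.6 and 74.8 CPM in BCS-vacuolated cells (log2 fold change -5.76 ± 0.30, adjusted p = 3.03e-13). Tdh, threonine dehydrogenase, an enzyme typical of mouse embryonic stem cells, had 6.39, 5.71 and 2.77 CPM in serum vesicles, against 134, 114 and 176 CPM in BCS-vacuolated cells (log2 fold change -4.77 ± 0.25, adjusted p = 4.04e-13). The lack of overlap in each of them was part of the choice.

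Cubn (cubilin), an endocytic receptor of visceral endoderm, had 15.5, 5.01 and 4.84 CPM in serum vesicles, against 569, 413 and 459 CPM in BCS-vacuolated cells (log2 fold change -5.79 ± 0.39, adjusted p = 9.65e-09; -6.60 without vesicle replicate 1, the highest of its group). Sema6d, a transmembrane semaphorin, had 9.43, 14.8 and 8.99 CPM in serum vesicles, against 321, 263 and 251 CPM in BCS-vacuolated cells (log2 fold change -4.63 ± 0.26, adjusted p = 2.33e-11). Vim (vimentin), the intermediate filament of mesenchymal and parietal endoderm cells, had 4.26, 5.01 and 3.23 CPM in serum vesicles, against 73.8, 66.5 and 65.1 CPM in BCS-vacuolated cells (log2 fold change -3.997 ± 0.24, adjusted p = 4.98e-12). Separate groups for each of the 3 genes were again required by the choice.

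Among the signalling genes of the 12 lowest, Dusp4, a phosphatase that shuts off ERK, had 6.09, 5.29 and 3.46 CPM in serum vesicles, against 86.5, 63.6 and 102 CPM in BCS-vacuolated cells (log2 fold change -4.04 ± 0.38, adjusted p = 1.45e-07). Fgfr3, a fibroblast growth factor receptor, had 4.56, 1.67 and 5.07 CPM in serum vesicles, against 51.4, 46.6 and 43.6 CPM in BCS-vacuolated cells (log2 fold change -3.702 ± 0.24, adjusted p = 6.06e-12). Ubash3b, a phosphatase that dampens tyrosine kinase signals, averaged 3.38 ± 0.588 CPM in serum vesicles and 58.6 ± 7.37 CPM in BCS-vacuolated cells. Phlda2, an imprinted gene that restrains placental growth in mice, averaged 3.901 ± 1.43 CPM in serum vesicles and 64.3 ± 4.74 CPM in BCS-vacuolated cells. Basp1, a membrane-bound acidic protein, averaged 2.53 ± 0.427 CPM in serum vesicles and 47.2 ± 6.03 CPM in BCS-vacuolated cells. Triml2, a tripartite-motif family member, averaged 2.72 ± 1.2998 CPM in serum vesicles and 35.2 ± 11.2 CPM in BCS-vacuolated cells. Log2 fold changes of these 4 were -4.096, -4.02, -4.18 and -3.71.

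**Figure D2:**
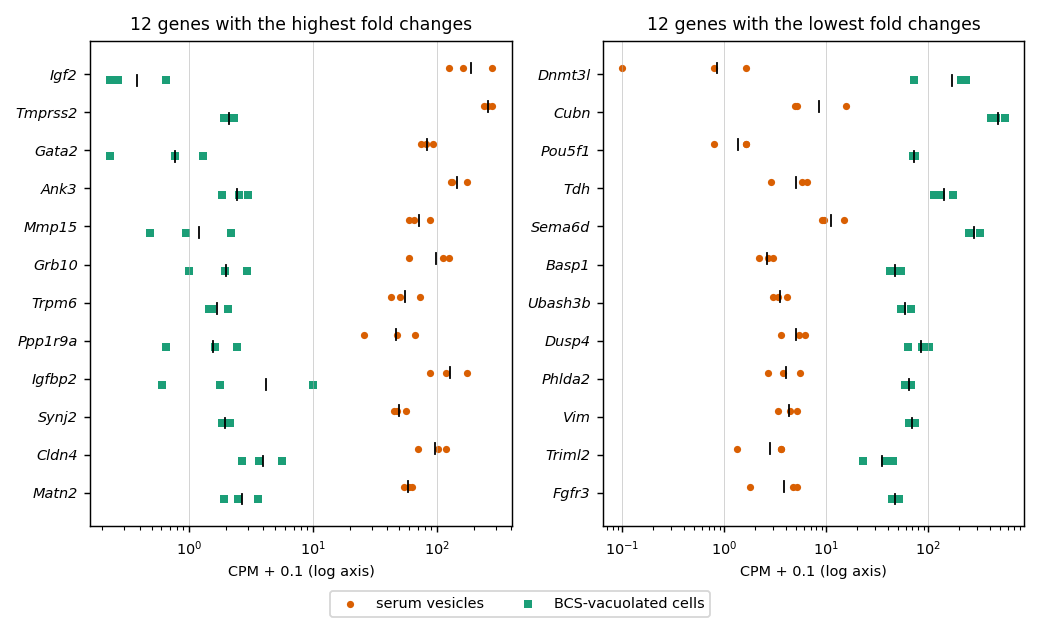
CPM plus 0.1 on a log axis in each library for the 12 highest (left) and the 12 lowest (right) of the genes chosen. The choice took called genes with no overlap between groups and a mean log2 CPM of at least 3, ranked by fold change. Serum vesicles are orange circles and BCS-vacuolated cells green squares, with a black bar at each mean. In both panels the 3 libraries of each group cluster apart from the other group, and Dnmt3l spans 0 to 1.52 CPM in serum vesicles against 73.0 to 234 CPM in BCS-vacuolated cells.

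The endoderm markers that define pXEN cells were present in both groups, at unequal levels. Gata4, a zinc-finger factor of primitive endoderm, had 146, 181 and 138 CPM in serum vesicles, against 306, 369 and 275 CPM in BCS-vacuolated cells (log2 fold change -1.03 ± 0.15, adjusted p = 3.71e-06). Its partner Gata6 had 13.1, 17.4 and 10.8 CPM in serum vesicles, against 90.6, 81.9 and 80.3 CPM in BCS-vacuolated cells (log2 fold change -2.59 ± 0.16, adjusted p = 1.8e-12). Sox17, the endoderm HMG-box factor, had 272, 366 and 254 CPM in serum vesicles, against 509, 717 and 489.7 CPM in BCS-vacuolated cells (log2 fold change -0.94 ± 0.16, adjusted p = 2.02e-05). Sox7 had 5.02, 2.64 and 4.61 CPM in serum vesicles, against 11.9, 8.15 and 11.5 CPM in BCS-vacuolated cells (log2 fold change -1.37 ± 0.28, adjusted p = 0.000246). In all 4, every vesicle library was below every BCS library. Pdgfra, the receptor that marks primitive endoderm, went the other way with 279, 206 and 248 CPM in serum vesicles, against 155, 165 and 118 CPM in BCS-vacuolated cells (log2 fold change 0.74 ± 0.16, adjusted p = 0.000459).

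Of 16 endoderm transcription factors listed, 13 were tested, 7 higher and 4 lower in serum vesicles (median log2 fold change 0.52). Forkhead factors were among the higher ones beside Gata2. Hnf4a, a nuclear receptor that visceral endoderm needs to mature, had 44.9, 43.8 and 34.1 CPM in serum vesicles, against 12.7, 13.1 and 14.9 CPM in BCS-vacuolated cells (log2 fold change 1.596 ± 0.19, adjusted p = 2.03e-07). Foxq1, a forkhead factor, had 73.2, 71.2 and 68.9 CPM in serum vesicles, against 19.8, 28.2 and 18.5 CPM in BCS-vacuolated cells (log2 fold change 1.67 ± 0.18, adjusted p = 2.22e-08). Foxa3, a hepatic forkhead factor, also passed and averaged 2.72 ± 0.416 CPM in serum vesicles and 0.502 ± 0.278 CPM in BCS-vacuolated cells. Tcf7l2, a β-catenin partner, was higher too and averaged 39.8 ± 17.2 CPM in serum vesicles and 14.7 ± 4.37 CPM in BCS-vacuolated cells. Foxa2 was 1.42-fold higher (adjusted p = 0.00901), a call lost without BCS replicate 3 (adjusted p = 0.0951).

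Factors associated with pluripotency were nearly all lower. Of 23 listed and 21 in the files, 13 were tested and 11 of these were lower and 1 higher, with a median of -2.62 (-2.80 to -1.97 with a library left out, -1.31 without a filter on low counts). Lin28a, an RNA-binding protein that blocks let-7 maturation, had 25.7, 24.1 and 17.98 CPM in serum vesicles, against 128, 174 and 133 CPM in BCS-vacuolated cells (log2 fold change -2.67 ± 0.14, adjusted p = 1.69e-13). Dnmt3b, a de novo DNA methyltransferase, had 3.96, 4.17 and 5.53 CPM in serum vesicles, against 40.5, 57.04 and 41.95 CPM in BCS-vacuolated cells (log2 fold change -3.38 ± 0.22, adjusted p = 4.28e-12). Neither gene overlapped between groups. Lin28b, its relative, averaged 0.915 ± 0.759 CPM in serum vesicles and 6.93 ± 2.201 CPM in BCS-vacuolated cells, and Sall4, a zinc-finger partner of Pou5f1, was 2.096-fold lower. Klf5 and Tbx3, which support self-renewal in mouse stem cells, were 2.79- and 3.97-fold lower. Tdgf1 (Cripto), a Nodal co-receptor, was 6.16-fold lower. Klf4, a Krüppel-like factor also common in epithelia, was the member that was higher, with 69.4, 86.97 and 70.8 CPM in serum vesicles, against 37.5, 44.5 and 36.4 CPM in BCS-vacuolated cells (log2 fold change 0.94 ± 0.16, adjusted p = 3.4e-05). Nanog and Sox2 were among 8 members with too few counts to test, and both had 0 counts in BCS-vacuolated cells.

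Markers of parietal endoderm were mostly lower in serum vesicles. Of the 20 listed, 19 were tested, 13 lower and 4 higher (median -1.16). Thbd (thrombomodulin), a surface anticoagulant of parietal endoderm, had 27.5, 29.2 and 22.4 CPM in serum vesicles, against 297, 379 and 304 CPM in BCS-vacuolated cells (log2 fold change -3.62 ± 0.15, adjusted p = 1.88e-15). Sparc, the abundant matrix glycoprotein of Reichert's membrane, had 530.0, 641 and 524 CPM in serum vesicles, against 2209.5, 2255 and 1780.0 CPM in BCS-vacuolated cells (log2 fold change -1.88 ± 0.12, adjusted p = 5.63e-12). Serpinh1, the collagen chaperone Hsp47, had 447, 503 and 378 CPM in serum vesicles, against 1599, 1972 and 1516 CPM in BCS-vacuolated cells (log2 fold change -1.94 ± 0.14, adjusted p = 5.53e-11). Srgn (serglycin), a secretory granule proteoglycan, averaged 48.4 ± 12.8 CPM in serum vesicles and 215 ± 31.5 CPM in BCS-vacuolated cells. The groups were separate for all 4. Beside Grb10 and Pdgfra the higher members were Fst (follistatin), an activin antagonist, with 22.1, 18.4 and 19.1 CPM in serum vesicles, against 3.39, 4.51 and 4.27 CPM in BCS-vacuolated cells (log2 fold change 2.27 ± 0.21, adjusted p = 2.33e-09), and Krt19 at 1.47-fold (adjusted p = 0.0175). Plat, tissue plasminogen activator, did not pass (log2 fold change 0.14 ± 0.48, adjusted p = 0.832), and its libraries overlapped.

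Markers of visceral endoderm split in both directions: of 36 listed and 34 in the files, 17 were tested, 9 higher and 5 lower (median 0.82). The split ran through the endocytic receptor complex of this tissue. Lrp2 (megalin), the large scavenger receptor, had 480.3, 321 and 727 CPM in serum vesicles, against 98.4, 115 and 74.3 CPM in BCS-vacuolated cells (log2 fold change 2.41 ± 0.46, adjusted p = 0.000625). Its partner Cubn, given above, and Amn (amnionless), which carries cubilin to the surface, were lower; Amn had 11.7, 5.84 and 8.299 CPM in serum vesicles, against 73.4, 79.3 and 96.5 CPM in BCS-vacuolated cells (log2 fold change -3.27 ± 0.21, adjusted p = 6.06e-12). Dab2, their clathrin adaptor, had 83.5, 23.2 and 19.8 CPM in serum vesicles, against 292, 260.3 and 309 CPM in BCS-vacuolated cells (log2 fold change -2.75 ± 0.51, adjusted p = 0.000547), with vesicle replicate 1 well above the rest of its group. Every vesicle library was above the BCS libraries for Lrp2 and below them for the other 3 genes.

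Among other higher members, Cited1, a transcriptional co-activator, had 44.1, 41.5 and 32.97 CPM in serum vesicles, against 2.71, 0.881 and 3.63 CPM in BCS-vacuolated cells (log2 fold change 4.08 ± 0.31, adjusted p = 9.93e-11). Ihh, the hedgehog ligand of visceral endoderm, had 28.1, 15.7 and 29.7 CPM in serum vesicles, against 4.24, 4.84 and 6.09 CPM in BCS-vacuolated cells (log2 fold change 2.26 ± 0.29, adjusted p = 6.61e-07). Habp2, a plasma serine protease, summed to 138 counts in serum vesicles and 1 in BCS-vacuolated cells, a ratio of 173 (95% counting interval 30.6 to 6890, covering counting error only). Apoe, the abundant apolipoprotein, was 1.77-fold higher (2310.3, 1845 and 1628 CPM in serum vesicles, against 989.8, 1348 and 929.8 CPM in BCS-vacuolated cells). Mttp, which loads lipid onto apolipoprotein B, was lower with 0.152, 1.53 and 0.461 CPM in serum vesicles, against 34.6, 9.91 and 37.2 CPM in BCS-vacuolated cells (log2 fold change -5.12 ± 0.93, adjusted p = 0.000337; -6.53 without vesicle replicate 2). Several other secreted markers had low counts. Afp had 13 counts in serum vesicles and 1 in BCS-vacuolated cells, and Ttr had 0 in both. Apob had 52 and 1, a ratio of 65.2 (95% counting interval 11.2 to 2630). Rbp4 had 23 and 1, Apom 41 and 8 and Apoa1 11 and 0, while Apoa2 went the other way with 0 and 10. Of these only Apob had enough counts to be tested.

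Epithelial junction genes were mostly higher. Of 42 tight junction and polarity genes listed, 40 were in the files and 34 tested, 21 higher (61.8%, against 27.6% of all genes) and 2 lower, Jam3 and Amotl1 (median 0.76). The call of Amotl1 was lost without vesicle replicate 1 or 3 or BCS replicate 1, which left 1 lower. Claudins were among them. Cldn7 had 53.4, 36.6 and 60.2 CPM in serum vesicles, against 4.92, 2.75 and 3.76 CPM in BCS-vacuolated cells (log2 fold change 3.74 ± 0.25, adjusted p = 1.2e-11). Cldn23 had 23.6, 20.04 and 23.7 CPM in serum vesicles, against 0.848, 1.101 and 1.81 CPM in BCS-vacuolated cells (log2 fold change 4.12 ± 0.29, adjusted p = 2.77e-11). Cldn3 had 211 counts in serum vesicles and 1 in BCS-vacuolated cells, a ratio of 265 (95% counting interval 47.0 to 10500). Cldn6, the claudin of early endoderm that BCS-vacuolated cells already carried, had 216, 171 and 161 CPM in serum vesicles, against 84.6, 79.8 and 95.7 CPM in BCS-vacuolated cells (log2 fold change 1.08 ± 0.15, adjusted p = 1.29e-06).

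Scaffolds and regulators of the same junction were higher too. Tjp1 (ZO-1), the plaque scaffold, had 259.7, 275 and 299 CPM in serum vesicles, against 136, 126 and 124 CPM in BCS-vacuolated cells (log2 fold change 1.11 ± 0.11, adjusted p = 1.35e-08). Ocln (occludin) had 139.8, 153 and 142 CPM in serum vesicles, against 83.1, 58.1 and 81.7 CPM in BCS-vacuolated cells (log2 fold change 0.97 ± 0.13, adjusted p = 1.47e-06). Prkci, atypical protein kinase C of the apical Par complex, had 169, 236 and 213 CPM in serum vesicles, against 98.5, 76.6 and 106 CPM in BCS-vacuolated cells (log2 fold change 1.14 ± 0.14, adjusted p = 2.91e-07). Libraries of the groups did not overlap for these genes. Grhl2, a grainyhead factor that drives epithelial junction genes, had 15.5, 12.7 and 19.4 CPM in serum vesicles, against 1.36, 0.991 and 1.04 CPM in BCS-vacuolated cells (log2 fold change 3.81 ± 0.37, adjusted p = 5.25e-09). Marveld3 had 9.13, 7.51 and 12.7 CPM in serum vesicles, against 0.1696, 0.1101 and 0.777 CPM in BCS-vacuolated cells. Crb3, an apical polarity protein, averaged 25.3 ± 5.69 CPM in serum vesicles and 8.21 ± 0.151 CPM in BCS-vacuolated cells. F11r, Cxadr, Lsr, Scrib and Pard6b did not pass, with log2 fold changes of 0.22, 0.19, -0.09, -0.02 and -0.19.

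Among adhesion, desmosome and keratin genes, 27 of the 37 listed were tested, 18 higher and 3 lower (median 0.90). Cdh1 (E-cadherin) had 189.7, 206 and 260.5 CPM in serum vesicles, against 28.3, 27.7 and 28.9 CPM in BCS-vacuolated cells (log2 fold change 2.95 ± 0.20, adjusted p = 8.04e-11). Ppl (periplakin), a desmosomal plakin, had 19.6, 17.1 and 34.3 CPM in serum vesicles, against 0.339, 0.3303 and 0.647 CPM in BCS-vacuolated cells (log2 fold change 5.68 ± 0.47, adjusted p = 4.5e-10; 4.77 with unstranded counts). Every vesicle library exceeded every BCS library for both. Epcam, an adhesion molecule of simple epithelia, had 205, 146 and 219 CPM in serum vesicles, against 87.2, 51.9 and 93.2 CPM in BCS-vacuolated cells (log2 fold change 1.296 ± 0.17, adjusted p = 9.73e-07). Krt8, a keratin of the same epithelia, had 765, 849 and 577 CPM in serum vesicles, against 423, 272 and 451 CPM in BCS-vacuolated cells (log2 fold change 0.94 ± 0.17, adjusted p = 5.05e-05). Its filament partner Krt18 was 1.86-fold higher, with no overlap in any of the 3. Ctnnb1 (β-catenin) itself did not pass (log2 fold change 0.25, adjusted p = 0.0625). Nectin3, Pkp3 and Nectin2 were the lower members, with log2 fold changes of -1.07, -0.94 and -0.43.

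Microvillus and brush border genes had 24 tested members of 29 listed, 14 higher and 4 lower (median 0.85). Vil1 (villin), the actin bundler of brush borders, had 252 counts in serum vesicles and 3 in BCS-vacuolated cells, a ratio of 105 (95% counting interval 35.6 to 514). Rab11a, a GTPase of apical recycling, had 57.8, 57.3 and 53.02 CPM in serum vesicles, against 16.8, 22.02 and 17.2 CPM in BCS-vacuolated cells (log2 fold change 1.58 ± 0.14, adjusted p = 8.59e-10). Myo1d, a class I myosin, had 55.7, 51.9 and 57.4 CPM in serum vesicles, against 17.8, 22.4 and 18.6 CPM in BCS-vacuolated cells (log2 fold change 1.48 ± 0.17, adjusted p = 6.13e-08). Baiap2l1, a membrane-bending actin regulator, averaged 53.4 ± 10.96 CPM in serum vesicles and 20.1 ± 4.05 CPM in BCS-vacuolated cells. Espn (espin), another actin bundler, averaged 18.4 ± 4.61 CPM in serum vesicles and 7.39 ± 2.02 CPM in BCS-vacuolated cells. Cdhr2, an intermicrovillar protocadherin, averaged 6.17 ± 2.14 CPM in serum vesicles and 0.733 ± 0.442 CPM in BCS-vacuolated cells. The ERM linkers of membrane and actin differed among themselves: Msn (moesin) was lower with 5.17, 7.38 and 6.92 CPM in serum vesicles, against 35.4, 25.2 and 34.8 CPM in BCS-vacuolated cells (log2 fold change -2.29 ± 0.28, adjusted p = 4.4e-07), while Ezr (ezrin) and Rdx (radixin) did not pass (log2 fold changes -0.12 and -0.19).

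Ion and water transport genes followed the same direction, with 15 of 23 tested members (of 33 listed) higher and 3 lower, and a median of 1.57. Slc9a3 (NHE3), the apical sodium-proton exchanger of absorptive epithelia, had 117, 103 and 102 CPM in serum vesicles, against 0, 0 and 0 CPM in BCS-vacuolated cells. Its summed counts were 1949 and 0, so it was at least 815-fold higher when 3 counts are allowed for the group with none. Atp1b1, the β subunit of the sodium pump, had 312, 249 and 332 CPM in serum vesicles, against 32.6, 55.1 and 45.3 CPM in BCS-vacuolated cells (log2 fold change 2.74 ± 0.16, adjusted p = 1.02e-12). Slc12a2 (NKCC1), a chloride importer of fluid-secreting epithelia, had 242, 208 and 189 CPM in serum vesicles, against 36.1, 50.9 and 44.7 CPM in BCS-vacuolated cells (log2 fold change 2.27 ± 0.15, adjusted p = 5.58e-12). Vesicles were above BCS-vacuolated cells in every library of these 3 genes. Car2, a carbonic anhydrase, had 32.6, 24.1 and 20.98 CPM in serum vesicles, against 0.678, 0.661 and 1.55 CPM in BCS-vacuolated cells (log2 fold change 4.72 ± 0.31, adjusted p = 5.58e-12). Aqp8, a water channel, had 122, 174 and 73.5 CPM in serum vesicles, against 29.2, 10.2 and 22.8 CPM in BCS-vacuolated cells (log2 fold change 2.603 ± 0.38, adjusted p = 4.41e-05). Slc4a4, a sodium bicarbonate cotransporter, had 40.8, 20.6 and 76.3 CPM in serum vesicles, against 0, 0.771 and 0.388 CPM in BCS-vacuolated cells (log2 fold change 6.64 ± 0.55, adjusted p = 1.99e-08). The lower members were Slc26a6, Car12 and Aqp1; Car12 had 1.67, 1.67 and 0.922 CPM in serum vesicles, against 6.11, 25.99 and 5.31 CPM in BCS-vacuolated cells, with BCS replicate 2 far above the other libraries (-3.10, and -1.93 without it). Aqp1 had 2 counts in serum vesicles and 40 in BCS-vacuolated cells, a 15.9-fold lower level (95% counting interval 4.13 to 136).

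**Figure D3:**
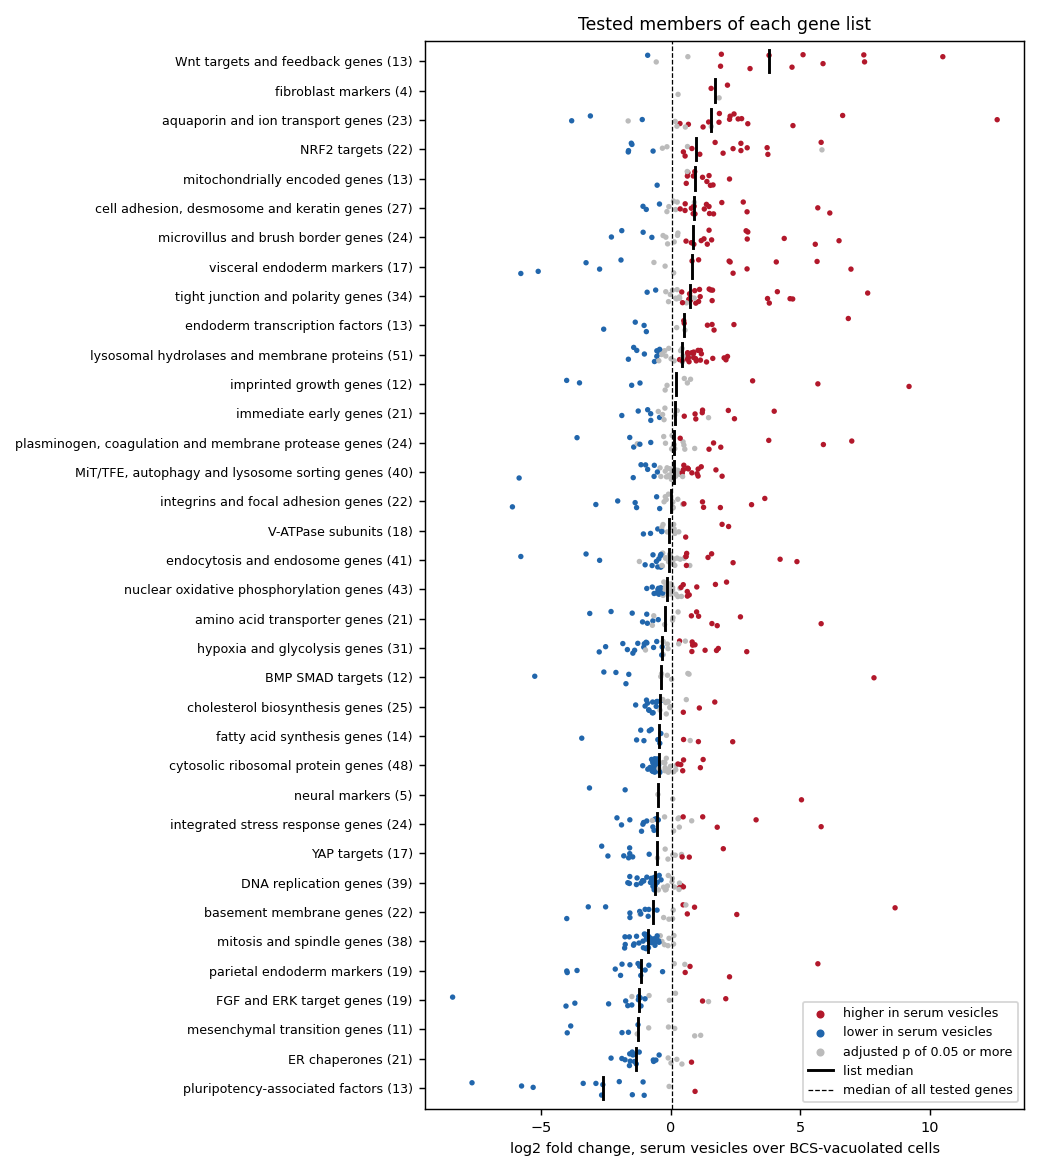
Each point is a tested member of a gene list, placed by its log2 fold change of serum vesicles over BCS-vacuolated cells, with list medians as black bars and the median of all tested genes as a dashed line. Lists with at least 4 tested members are ordered by median, and the number tested is in brackets. Wnt, fibroblast (4 genes), ion transport and NRF2 lists lie at the top, and pluripotency, ER chaperone, mesenchymal and FGF lists at the bottom.

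Genes of the basement membrane were more often lower: 22 of 31 listed were tested, 11 lower and 5 higher (median -0.69). The median ran from -0.74 to -0.58 with a library left out and up to -0.12 under other settings. The chains of laminin-111 and both tested collagen IV chains were lower, and other collagen IV chains had too few counts to test. Lama1 had 1033, 683 and 1012 CPM in serum vesicles, against 2248, 2499.7 and 1512 CPM in BCS-vacuolated cells (log2 fold change -1.199 ± 0.20, adjusted p = 3.62e-05). Lamb1 had 626, 603 and 630.2 CPM in serum vesicles, against 1498, 1398 and 1251 CPM in BCS-vacuolated cells (log2 fold change -1.16 ± 0.13, adjusted p = 6.93e-08). Lamc1 was 1.797-fold lower. Col4a2 had 974, 952 and 786 CPM in serum vesicles, against 3122, 2575 and 2388 CPM in BCS-vacuolated cells (log2 fold change -1.58 ± 0.17, adjusted p = 2.05e-08). Col4a1 was 1.98-fold lower. No vesicle library reached a BCS library for these 5 genes. P4ha1, the collagen prolyl hydroxylase, had 74.1, 93.8 and 50.3 CPM in serum vesicles, against 492, 304 and 459.5 CPM in BCS-vacuolated cells (log2 fold change -2.51 ± 0.20, adjusted p = 1.23e-09). The nidogen Nid2, which bridges laminin and collagen IV, had 1.37, 1.11 and 2.07 CPM in serum vesicles, against 14.2, 12.7 and 13.2 CPM in BCS-vacuolated cells (log2 fold change -3.18 ± 0.35, adjusted p = 3.57e-08). Other members were higher. Lama5 was 1.56-fold and Lamb2 1.39-fold higher, and Smoc1, a SPARC relative, at least 51.8-fold (124 and 0 summed counts). Without vesicle replicate 1, vesicle replicate 3 or BCS replicate 3 the higher members were 3.

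Integrins stood near the background, with 6 higher and 7 lower of 22 tested (27 listed, median 0.00). Itga2, a collagen receptor chain, had 8.82, 7.38 and 5.53 CPM in serum vesicles, against 59.2, 46.8 and 58.8 CPM in BCS-vacuolated cells (log2 fold change -2.89 ± 0.21, adjusted p = 2.75e-11). Itga5, of the fibronectin receptor, had 10.04, 10.99 and 13.4 CPM in serum vesicles, against 47.997, 55.2 and 37.8 CPM in BCS-vacuolated cells (log2 fold change -2.05 ± 0.19, adjusted p = 1.86e-09). Itga6, of laminin receptors, had 36.4, 24.5 and 36.4 CPM in serum vesicles, against 86.8, 79.6 and 84.6 CPM in BCS-vacuolated cells (log2 fold change -1.37 ± 0.16, adjusted p = 9e-08). Itga4 had 2 counts in serum vesicles and 209 in BCS-vacuolated cells, an 83.3-fold lower level (95% counting interval 22.8 to 692). The shared β1 chain Itgb1 did not pass (-0.09, adjusted p = 0.583). Itgb4, which partners Itga6 in hemidesmosomes, was higher with 13.996, 9.05 and 32.04 CPM in serum vesicles, against 0.678, 1.54 and 1.94 CPM in BCS-vacuolated cells (log2 fold change 3.63 ± 0.51, adjusted p = 5.99e-06; 2.99 without vesicle replicate 3 and 1.93 with unstranded counts). Itga3 was 2.34-fold higher, with 51.4, 45.4 and 49.6 CPM in serum vesicles, against 18.995, 24.2 and 19.03 CPM in BCS-vacuolated cells.

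Mesenchymal transition genes had 5 lower and none higher among 11 tested of 20 listed by edgeR's test (median -1.26); none was higher by DESeq2 either, 1 (Zeb1) was at an unadjusted p under 0.05, and 1 was higher without vesicle replicate 3. Beside Vim and Sparc, Cnn1 (calponin), a contractile protein, was lower with 1.37, 0.974 and 0.692 CPM in serum vesicles, against 10.7, 23.5 and 11.7 CPM in BCS-vacuolated cells (log2 fold change -3.86 ± 0.41, adjusted p = 2.22e-08). Fn1 (fibronectin), a matrix glycoprotein, was lower with 9.58, 8.63 and 14.1 CPM in serum vesicles, against 36.97, 40.2 and 21.1 CPM in BCS-vacuolated cells (log2 fold change -1.63 ± 0.39, adjusted p = 0.00227). Snai1, the repressor of Cdh1, was lower with 3.35, 3.201 and 6.92 CPM in serum vesicles, against 13.9, 6.83 and 10.7 CPM in BCS-vacuolated cells (log2 fold change -1.26 ± 0.33, adjusted p = 0.00204), where vesicle replicate 3 and BCS replicate 2 overlapped. Zeb1, another repressor of epithelial genes, had 2.28, 2.37 and 1.15 CPM in serum vesicles, against 1.02, 0.991 and 0.647 CPM in BCS-vacuolated cells and did not pass (log2 fold change 1.16, adjusted p = 0.0652).

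Proteases and clotting regulators of the cell surface stood near the background, with 7 higher (29.2%) and 5 lower (20.8%) of 24 tested (33 listed, median 0.14). The shares of all genes were 27.6% and 26.4%. Beside Tmprss2 and Mmp15, Prss8 (prostasin) had 39.1, 43.4 and 47.7 CPM in serum vesicles, against 16.96, 11.3 and 13.3 CPM in BCS-vacuolated cells (log2 fold change 1.65 ± 0.20, adjusted p = 2.16e-07). Its activator St14 (matriptase) had 56.4, 43.1 and 82.99 CPM in serum vesicles, against 25.8, 16.7 and 22.9 CPM in BCS-vacuolated cells (log2 fold change 1.48 ± 0.24, adjusted p = 2.13e-05). F3 (tissue factor), the starter of clotting, was lower with 109, 109.5 and 97.05 CPM in serum vesicles, against 313, 337 and 295 CPM in BCS-vacuolated cells (log2 fold change -1.58 ± 0.16, adjusted p = 1e-08). Timp2, a metalloproteinase inhibitor, was lower with 106, 99.6 and 102 CPM in serum vesicles, against 248, 225 and 229.8 CPM in BCS-vacuolated cells (log2 fold change -1.19 ± 0.10, adjusted p = 1.09e-09). Plaur, the urokinase receptor, averaged 10.3 ± 0.841 CPM in serum vesicles and 27.995 ± 4.94 CPM in BCS-vacuolated cells, a further lower member.

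Vacuoles of visceral endoderm belong to the endosome and lysosome system. A link of lysosomal genes to the vacuoles that name the BCS culture was not tested. Of 58 lysosomal hydrolases and membrane proteins listed, 51 were tested, 23 higher (45.1%) and 9 lower (median 0.45). Glb1 (β-galactosidase) had 106, 105 and 80.9 CPM in serum vesicles, against 22.9, 25.2 and 18.4 CPM in BCS-vacuolated cells (log2 fold change 2.13 ± 0.15, adjusted p = 1.6e-11). Ctsb (cathepsin B) had 382, 285 and 332 CPM in serum vesicles, against 138, 122 and 124 CPM in BCS-vacuolated cells (log2 fold change 1.38 ± 0.14, adjusted p = 7.6e-09). Idua, which degrades heparan and dermatan sulfate, had 23.9, 26.6 and 28.4 CPM in serum vesicles, against 8.14, 4.73 and 6.22 CPM in BCS-vacuolated cells (log2 fold change 2.06 ± 0.22, adjusted p = 2.91e-08). Groups were separate for all 3. Man2b1, Arsb, Asah1, Tpp1 and Gaa were 1.85- to 2.27-fold higher.

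Lower lysosomal members included a major protease and a membrane glycoprotein. Ctsl (cathepsin L), the major cysteine protease of yolk sac endoderm, had 832, 619 and 538 CPM in serum vesicles, against 1370.2, 2589.9 and 1402 CPM in BCS-vacuolated cells (log2 fold change -1.43 ± 0.22, adjusted p = 1.72e-05). Ctsz had 433, 319.8 and 259 CPM in serum vesicles, against 892, 714 and 909 CPM in BCS-vacuolated cells (log2 fold change -1.31 ± 0.15, adjusted p = 1.21e-07). Lamp1, the main glycoprotein of the lysosome membrane, had 539, 507 and 505 CPM in serum vesicles, against 1132, 865 and 1145 CPM in BCS-vacuolated cells (log2 fold change -1.02 ± 0.13, adjusted p = 2.57e-07). BCS replicate 2 was highest for Ctsl and lowest for Ctsz and Lamp1, with no overlap between groups. Lamp2 did not pass (log2 fold change 0.13, adjusted p = 0.513), while Mcoln1, a lysosomal calcium channel, was 1.45-fold lower.

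The E-box CACGTG, the core bound by TFEB and related MiT factors, was searched on both strands in RefSeq promoter windows (250 bases before to 50 after the gene start, GRCr8). It was found in 10 of 41 lysosomal windows (24.4%) and in 6.42% of 33469 windows of the genome. The genome windows include genes that were not tested, and 3251 symbols have several windows there. List windows are the first window of each tested gene. The genome shares given here and for the motifs further on are therefore not from a matched set. Tested genes with a window numbered 8520 and were not used as the background. A longer form of the site, called CLEAR, with the E-box at its centre, was in 1 of the 41 lysosomal windows (2.44%). That window was of Galc, which was not called. CLEAR was in 0.233% of the genome windows. Of 25 windows of called lysosomal members, 7 held the E-box and 0 held CLEAR. The E-box occurred in windows of higher and of lower members, among them Glb1, Idua and Gaa on the higher side and Lamp1 and Mcoln1 on the lower. The 250 bases before the start of Glb1 are shown as the strongest change with this motif, read on the plus strand of chr8:122963468-122963717, with the E-box in capitals.
Glb1: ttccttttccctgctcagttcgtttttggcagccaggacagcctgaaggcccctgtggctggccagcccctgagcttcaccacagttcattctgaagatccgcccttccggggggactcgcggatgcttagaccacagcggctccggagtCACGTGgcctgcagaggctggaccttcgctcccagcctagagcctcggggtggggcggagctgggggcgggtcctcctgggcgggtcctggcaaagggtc

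MiT/TFE, autophagy and lysosome sorting genes stood near the background, with 13 higher and 8 lower of 40 tested (44 listed, median 0.13), and 8 higher without BCS replicate 1. Of the factors themselves, Mitf was 1.601-fold higher (adjusted p = 0.0465), Tfeb and Tfe3 did not pass (-0.41 and 0.28), and Tfec was almost absent from serum vesicles with 1.37, 0.278 and 0.922 CPM in serum vesicles, against 57.5, 34.4 and 56.1 CPM in BCS-vacuolated cells (log2 fold change -5.86 ± 0.61, adjusted p = 1.12e-06; -6.51 without vesicle replicate 1). Becn1 (beclin 1), which starts autophagosomes, had 73.03, 67.6 and 65.01 CPM in serum vesicles, against 33.1, 31.5 and 34.3 CPM in BCS-vacuolated cells (log2 fold change 1.06 ± 0.13, adjusted p = 2.13e-07), and the kinases Ulk1 and Ulk2 were 3.96- and 2.26-fold higher. Igf2r, the receptor that sorts hydrolases and clears Igf2, had 124, 37.3 and 112 CPM in serum vesicles, against 171, 20.8 and 111 CPM in BCS-vacuolated cells (log2 fold change -0.14 ± 0.57, adjusted p = 0.851). Replicate 2 was the lowest of both groups, so the libraries overlapped.

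V-ATPase subunits, the proton pump of these compartments, also stood near the background: 6 lower and 3 higher of 18 tested (22 listed, median -0.07), and 3 lower without vesicle replicate 1, vesicle replicate 3 or BCS replicate 2. Atp6v0b had 56.1, 54.4 and 50.5 CPM in serum vesicles, against 104, 118 and 113 CPM in BCS-vacuolated cells (log2 fold change -1.05 ± 0.13, adjusted p = 1.71e-07). Atp6v1b2 had 158, 147 and 143 CPM in serum vesicles, against 288, 184 and 299.5 CPM in BCS-vacuolated cells (log2 fold change -0.78 ± 0.14, adjusted p = 4.83e-05). Atp6v0e2 was higher with 21.5, 15.03 and 8.99 CPM in serum vesicles, against 2.88, 3.19 and 3.63 CPM in BCS-vacuolated cells (log2 fold change 2.23 ± 0.28, adjusted p = 3.2e-07). Among endocytosis and endosome genes, again near the background, 9 were higher and 12 lower of 41 tested (43 listed, median -0.07). The retromer core of Vps35, Vps26a and Vps29, which returns receptors from endosomes, was lower throughout (-0.69, -0.72 and -0.99 on the log2 scale). Cav1 (caveolin 1) was higher with 54.8, 19.6 and 23.3 CPM in serum vesicles, against 2.205, 1.21 and 1.94 CPM in BCS-vacuolated cells (log2 fold change 4.22 ± 0.58, adjusted p = 2.23e-05; 3.60 without vesicle replicate 1), and Cltc (clathrin heavy chain) did not pass (0.07).

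Wnt targets and feedback genes gave a median of 3.80, the highest of the lists with at least 4 tested members, with 10 higher and 1 lower of 13 tested (27 listed, 24 in the files). The other 11 had too few counts to test. Members such as Cdx2 and Lef1 could pass the filter only through the vesicle groups, so the filter has a part in these values. The median ran from 3.35 to 4.10 with a library left out. Under other settings it ran from 3.02 to 3.96, with 9 to 13 members higher. CHIR99021 was in the vesicle medium and not named for the BCS culture. Lgr5, the R-spondin receptor, had 37.1, 47.9 and 42.2 CPM in serum vesicles, against 0, 0.2202 and 0.388 CPM in BCS-vacuolated cells (log2 fold change 7.49 ± 0.39, adjusted p = 4.26e-13; 8.14 without BCS replicate 3). Axin2, the feedback scaffold that destroys β-catenin, had 12.9, 9.74 and 28.4 CPM in serum vesicles, against 0.339, 0 and 0.518 CPM in BCS-vacuolated cells (log2 fold change 5.88 ± 0.64, adjusted p = 1.53e-07; 6.77 without BCS replicate 3 and 5.19 without BCS replicate 2). BCS libraries were at or near 0 for both. Cdx2, a caudal homeobox factor, had 31.6, 21.6 and 21.7 CPM in serum vesicles, against 0, 0 and 0 CPM in BCS-vacuolated cells; its 457 summed counts put it at least 191-fold above a group with 0. Lef1, a TCF family member, had 53 summed counts in serum vesicles and 0 in BCS-vacuolated cells (at least 22.2-fold), and Tcf7 had 17.04, 17.7 and 13.1 CPM in serum vesicles, against 0.678, 0.1101 and 0.647 CPM in BCS-vacuolated cells (log2 fold change 5.11 ± 0.46, adjusted p = 1.57e-09; 3.93 with unstranded counts).

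Rnf43, a ubiquitin ligase that removes Wnt receptors, averaged 10.6 ± 3.45 CPM in serum vesicles and 0.37 ± 0.386 CPM in BCS-vacuolated cells. Tnfrsf19 averaged 10.2 ± 3.23 CPM in serum vesicles and 1.13 ± 0.767 CPM in BCS-vacuolated cells. Nkd1 and Sp5, feedback genes with too few counts to be tested, had 26 and 16 counts in serum vesicles and 0 in BCS-vacuolated cells. Myc was the lower member (1.85-fold, adjusted p = 0.0232), a call lost without vesicle replicate 2 or 3 or BCS replicate 1, and Ccnd1 did not pass (-0.56). The letters CTTTGA, the core of a TCF/LEF site, which overlap the letters TTTGAA used further on, were in 4 of 9 Wnt list windows (44.4%) and in 16.1% of all windows, both strands searched. The 250 bases before the start of Axin2 are shown as a feedback gene with 2 matches, in capitals, on the plus strand of chr10:94398535-94398784.
Axin2: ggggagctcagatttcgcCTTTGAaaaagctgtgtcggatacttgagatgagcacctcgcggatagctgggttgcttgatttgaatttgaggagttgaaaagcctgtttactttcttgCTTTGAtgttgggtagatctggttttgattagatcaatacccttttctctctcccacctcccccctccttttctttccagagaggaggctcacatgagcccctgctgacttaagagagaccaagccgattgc

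FGF and ERK target genes were mostly lower, 12 of 19 tested with 2 higher (22 listed, median -1.23). Fgf10, a ligand of Fgfr2, had 0, 0.835 and 0 CPM in serum vesicles, against 128, 131 and 98.3 CPM in BCS-vacuolated cells (log2 fold change -8.42 ± 0.43, adjusted p = 9.1e-12). It was detected in vesicle replicate 2 alone, and the fitted value was -12.76 without that library. Among receptors, Fgfr3 was given above, Fgfr1 had 29.1, 19.5 and 32.04 CPM in serum vesicles, against 69.03, 66.2 and 52.7 CPM in BCS-vacuolated cells (log2 fold change -1.23 ± 0.21, adjusted p = 2.37e-05). Fgfr4 was 2.26-fold lower and Fgfr2 did not pass (0.18). Spry2, a sprouty feedback inhibitor that ERK induces, had 13.5, 14.1 and 15.4 CPM in serum vesicles, against 25.8, 35.1 and 33.8 CPM in BCS-vacuolated cells (log2 fold change -1.15 ± 0.16, adjusted p = 1.06e-06). Its relative Spry4 had 6.85, 4.87 and 5.302 CPM in serum vesicles, against 20.01, 14.9 and 22.4 CPM in BCS-vacuolated cells (log2 fold change -1.74 ± 0.28, adjusted p = 1.13e-05). The ETS factor Etv5 averaged 3.04 ± 1.38 CPM in serum vesicles and 9.84 ± 0.514 CPM in BCS-vacuolated cells. Il17rd (Sef), another inhibitor of the same pathway, was higher with 18.1, 26.6 and 30.7 CPM in serum vesicles, against 5.09, 6.72 and 5.18 CPM in BCS-vacuolated cells (log2 fold change 2.13 ± 0.27, adjusted p = 4.47e-07), and Dusp6 and Egr1 did not pass (-0.84 and 1.46).

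BMP/SMAD genes had few calls on the higher side. Bmp4 had 20.7, 26.4 and 25.8 CPM in serum vesicles, against 0.1696, 0.1101 and 0 CPM in BCS-vacuolated cells. The 438 and 2 summed counts make it 275 times higher, with a 95% counting interval of 75.6 to 2280. The SMAD target Id1, an inhibitor of basic helix-loop-helix factors, had 15.4, 10.7 and 10.8 CPM in serum vesicles, against 52.9, 47.7 and 60.6 CPM in BCS-vacuolated cells (log2 fold change -2.12 ± 0.24, adjusted p = 1.53e-07). Its relative Id4 had 9.58, 13.9 and 6.92 CPM in serum vesicles, against 68.7, 61.1 and 57.4 CPM in BCS-vacuolated cells (log2 fold change -2.58 ± 0.19, adjusted p = 4.31e-11). Both were lower in every vesicle library. Bmper, a secreted BMP regulator, had 0, 0.417 and 0.461 CPM in serum vesicles, against 8.31, 15.4 and 9.45 CPM in BCS-vacuolated cells (log2 fold change -5.25 ± 0.48, adjusted p = 1.8e-09; -4.64 without vesicle replicate 1). Of 12 tested (18 listed), 1 was higher, 5 were lower and Id2, Smad6 and Smad7 did not pass (median -0.37). Without vesicle replicate 3 the higher members were 2.

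YAP targets had 8 lower and 3 higher of 17 tested (22 listed, median -0.51). Ctgf (Ccn2), a secreted matricellular protein, had 76.8, 41.7 and 79.5 CPM in serum vesicles, against 478, 349 and 424 CPM in BCS-vacuolated cells (log2 fold change -2.67 ± 0.23, adjusted p = 1.47e-08). Its relative Cyr61 (Ccn1) had 19.2, 27.1 and 19.8 CPM in serum vesicles, against 92.9, 58.03 and 83.5 CPM in BCS-vacuolated cells (log2 fold change -1.81 ± 0.24, adjusted p = 2.56e-06). Ajuba, a LIM-domain adaptor, had 45.03, 32.8 and 37.6 CPM in serum vesicles, against 103, 124 and 119.8 CPM in BCS-vacuolated cells (log2 fold change -1.59 ± 0.16, adjusted p = 1.35e-08). Asap1, a GTPase activator for Arf proteins, was higher with 38.9, 37.99 and 55.3 CPM in serum vesicles, against 7.802, 11.3 and 12.7 CPM in BCS-vacuolated cells (log2 fold change 2.03 ± 0.21, adjusted p = 2.18e-08). Immediate early genes went both ways, 8 higher (38.1%) and 6 lower (28.6%) of 21 tested (25 listed, median 0.16), with 3 lower without vesicle replicate 2 or 3. Of all genes 27.6% were higher and 26.4% lower. Among AP-1 subunits, Jun had 52.2, 57.9 and 54.2 CPM in serum vesicles, against 27.6, 30.9 and 25.2 CPM in BCS-vacuolated cells (log2 fold change 0.97 ± 0.18, adjusted p = 8.11e-05). Fosl2 had 13.996, 14.8 and 14.3 CPM in serum vesicles, against 3.39, 2.31 and 2.201 CPM in BCS-vacuolated cells (log2 fold change 2.46 ± 0.30, adjusted p = 1.77e-07). Both were higher, and Junb, another subunit, was lower with 6.24, 3.06 and 2.54 CPM in serum vesicles, against 10.7, 9.25 and 9.06 CPM in BCS-vacuolated cells (log2 fold change -1.26 ± 0.29, adjusted p = 0.000826).

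Chaperones of the endoplasmic reticulum were lower as a group: all 21 listed were tested, 16 lower (76.2%) and 1 higher, Syvn1 (median -1.33). Without BCS replicate 2 the higher members were 2. Hspa5 (BiP), the Hsp70 of the lumen, had 462, 368 and 292 CPM in serum vesicles, against 1303, 1281 and 1570.5 CPM in BCS-vacuolated cells (log2 fold change -1.89 ± 0.14, adjusted p = 9.93e-11). Pdia4, a disulfide isomerase, had 58.7, 45.9 and 41.03 CPM in serum vesicles, against 168, 167 and 162 CPM in BCS-vacuolated cells (log2 fold change -1.77 ± 0.13, adjusted p = 7.29e-11). Dnajb11, a BiP cofactor, had 67.1, 59.1 and 46.1 CPM in serum vesicles, against 156, 187 and 179 CPM in BCS-vacuolated cells (log2 fold change -1.59 ± 0.15, adjusted p = 3.68e-09). Every vesicle library was below the lowest BCS library for these 3 genes. Hyou1, Pdia6, Hsp90b1, Calr and Canx were 2.32- to 2.998-fold lower. The stress factor Xbp1 and the degradation factors Herpud1 and Sel1l did not pass (0.24, 0.43 and 0.01).

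The ER stress element, searched on both strands as CCAAT, any 9 bases and CCACG, was in 7 of the 18 ER chaperone windows (38.9%) and in 22 of 33469 windows of the genome (0.0657%). The 7 were Hspa5, Hsp90b1, Calr, Canx, Dnajc3, Creld2 and Xbp1, of which all but Xbp1 were lower. Of the whole list 76.2% were lower, and of 14 windows of called members 6 held the element. A link of the element to the change was not tested. The promoters of Hspa5 and Hsp90b1 are shown because they carry this element in genes that were lower, with the element in capitals. The Hspa5 window is on the plus strand of chr3:38452766-38453015, and the Hsp90b1 window, with a copy in each direction, on the minus strand of chr7:23012294-23012543.
Hspa5: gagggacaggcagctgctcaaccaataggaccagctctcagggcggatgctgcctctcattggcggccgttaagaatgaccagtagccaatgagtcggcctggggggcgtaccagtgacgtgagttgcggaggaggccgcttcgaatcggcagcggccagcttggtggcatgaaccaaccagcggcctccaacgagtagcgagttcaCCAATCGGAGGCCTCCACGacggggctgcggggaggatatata
Hsp90b1: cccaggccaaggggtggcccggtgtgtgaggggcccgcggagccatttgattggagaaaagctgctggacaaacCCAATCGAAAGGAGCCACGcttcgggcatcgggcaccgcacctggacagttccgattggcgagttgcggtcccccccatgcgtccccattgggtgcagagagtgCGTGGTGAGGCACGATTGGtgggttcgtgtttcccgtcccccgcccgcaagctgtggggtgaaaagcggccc

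Genes of the integrated stress response had 12 lower and 5 higher of 24 tested (26 listed, median -0.51). Phgdh, the entry enzyme of serine synthesis, had 37.9, 32.4 and 24.4 CPM in serum vesicles, against 129.9, 128 and 145 CPM in BCS-vacuolated cells (log2 fold change -2.08 ± 0.19, adjusted p = 7.28e-09). Shmt2, which makes glycine from serine in mitochondria, had 42.3, 39.9 and 29.3 CPM in serum vesicles, against 131, 142 and 147 CPM in BCS-vacuolated cells (log2 fold change -1.901 ± 0.13, adjusted p = 1.62e-11). Atf4, the factor of this response, was 1.46-fold lower, and its partner target Ddit3 (CHOP) did not pass (0.33). Vldlr and Slc6a9 were higher, Slc6a9, a glycine transporter, with 28.3, 35.5 and 33.4 CPM in serum vesicles, against 8.82, 7.16 and 12.04 CPM in BCS-vacuolated cells (log2 fold change 1.796 ± 0.24, adjusted p = 6.86e-07).

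NRF2 targets leaned higher, with 13 higher and 5 lower of 22 tested (28 listed, median 0.97). Fth1 (ferritin heavy chain) had 607, 329.5 and 708 CPM in serum vesicles, against 83.3, 63.9 and 104 CPM in BCS-vacuolated cells (log2 fold change 2.71 ± 0.21, adjusted p = 1.76e-09). Gstp1 had 176, 111 and 159.8 CPM in serum vesicles, against 19.5, 15.2 and 23.2 CPM in BCS-vacuolated cells (log2 fold change 2.95 ± 0.39, adjusted p = 1.71e-05). Ferritin and glutathione transferase genes have near-identical copies, so their counts are uncertain. Prdx1 and Tkt, an antioxidant enzyme and transketolase, were lower, Prdx1 with 254, 272 and 219.7 CPM in serum vesicles, against 774, 735 and 799.8 CPM in BCS-vacuolated cells (log2 fold change -1.63 ± 0.14, adjusted p = 4.4e-10) and Tkt at 2.82-fold. Hmox1 did not pass (-0.32).

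Hypoxia and glycolysis genes went both ways: of 31 tested (34 listed), 15 were lower (48.4%) and 9 higher (29%, against 27.6% of all genes), with a median of -0.33. Ldha, lactate dehydrogenase A, had 489, 466 and 260.5 CPM in serum vesicles, against 1360.2, 1142 and 1382 CPM in BCS-vacuolated cells (log2 fold change -1.67 ± 0.16, adjusted p = 3.92e-09). Slc16a3 (MCT4), the lactate exporter, had 29.5, 33.8 and 12.7 CPM in serum vesicles, against 215, 177 and 136 CPM in BCS-vacuolated cells (log2 fold change -2.76 ± 0.24, adjusted p = 9.51e-09). Pfkl, Pgk1, Pkm and Gapdh were 1.89- to 2.75-fold lower; Gapdh has many copies and its count is uncertain. Vegfa, the angiogenic factor, was higher with 79.3, 91.01 and 121 CPM in serum vesicles, against 27.6, 29.5 and 24.1 CPM in BCS-vacuolated cells (log2 fold change 1.84 ± 0.18, adjusted p = 1.05e-08). Ndrg1 was higher with 54.8, 48.98 and 53.7 CPM in serum vesicles, against 15.9, 20.5 and 9.58 CPM in BCS-vacuolated cells (log2 fold change 1.77 ± 0.20, adjusted p = 9.16e-08). Hk1, a hexokinase of glycolysis, was higher too and averaged 18.3 ± 4.75 CPM in serum vesicles and 7.24 ± 0.9696 CPM in BCS-vacuolated cells. Slc2a1 (GLUT1) passed at 1.797-fold higher with overlapping libraries (103, 59.3 and 137 CPM in serum vesicles, against 54.3, 76.6 and 33.9 CPM in BCS-vacuolated cells).

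Lipid synthesis was lower in part. Of 25 cholesterol genes tested (26 listed), 13 were lower and 3 higher (median -0.41): Fdps, farnesyl diphosphate synthase, had 164, 149 and 145 CPM in serum vesicles, against 391, 398 and 383 CPM in BCS-vacuolated cells (log2 fold change -1.35 ± 0.10, adjusted p = 1.15e-10). Cyp51 had 144, 107 and 122 CPM in serum vesicles, against 219.8, 223 and 230.1 CPM in BCS-vacuolated cells (log2 fold change -0.85 ± 0.12, adjusted p = 2.43e-06), while Hmgcs1 did not pass (-0.11). Of 14 fatty acid genes tested (18 listed), 9 were lower and 3 higher (median -0.46). Scd, the stearoyl-CoA desaturase, had 13.7, 18.4 and 7.38 CPM in serum vesicles, against 142, 168 and 129.9 CPM in BCS-vacuolated cells (log2 fold change -3.44 ± 0.25, adjusted p = 8.22e-10). Fasn (fatty acid synthase) had 433, 377 and 391 CPM in serum vesicles, against 872, 874 and 716 CPM in BCS-vacuolated cells (log2 fold change -1.03 ± 0.17, adjusted p = 2.54e-05). Acss2, which makes acetyl-CoA from acetate, was higher with 137, 141 and 157 CPM in serum vesicles, against 29.9, 22.6 and 30.6 CPM in BCS-vacuolated cells (log2 fold change 2.39 ± 0.13, adjusted p = 4.05e-13). The sterol element TCACNCCAC was in none of 17 cholesterol windows and in 1.12% of all windows. Amino acid transporters went both ways, 7 higher (33.3%) and 8 lower (38.1%) of 21 tested (26 listed, median -0.24, from -0.35 to -0.05 with a library left out and up to 0.04 under other settings). Of all genes 27.6% were higher and 26.4% lower. Slc38a1 had 26.8, 27.1 and 23.7 CPM in serum vesicles, against 141, 99.2 and 145 CPM in BCS-vacuolated cells (log2 fold change -2.305 ± 0.15, adjusted p = 8.22e-12). Slc7a1 was 2.804-fold lower, whereas Slc38a2 had 415, 444 and 396 CPM in serum vesicles, against 197, 183 and 216 CPM in BCS-vacuolated cells (log2 fold change 1.08 ± 0.13, adjusted p = 1.27e-07).

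Cell cycle genes were lower in serum vesicles. Of 38 mitosis and spindle genes tested (40 listed), 31 were lower (81.6%, against 26.4% of all genes) and none higher by edgeR's test, by DESeq2 or at an unadjusted p under 0.05 (0 members in each; median -0.88). Cdc20, the activator of the anaphase-promoting complex, had 41.5, 48.01 and 38.3 CPM in serum vesicles, against 146, 137 and 151 CPM in BCS-vacuolated cells (log2 fold change -1.76 ± 0.13, adjusted p = 4.37e-11). The checkpoint kinase Bub1 had 85.3, 106 and 81.1 CPM in serum vesicles, against 328, 253 and 357 CPM in BCS-vacuolated cells (log2 fold change -1.78 ± 0.14, adjusted p = 1.57e-10). Ccnb1 (cyclin B1) had 63.3, 73.3 and 52.6 CPM in serum vesicles, against 238, 154 and 256 CPM in BCS-vacuolated cells (log2 fold change -1.77 ± 0.15, adjusted p = 7.85e-10). Vesicle libraries were below BCS libraries throughout. Mki67 (Ki-67) and Top2a did not pass (-0.404 and -0.24). Of 39 DNA replication genes tested (40 listed), 25 were lower and 3 higher (median -0.62). Rrm2, of ribonucleotide reductase, had 115, 94.5 and 82.1 CPM in serum vesicles, against 290.4, 275 and 308 CPM in BCS-vacuolated cells (log2 fold change -1.58 ± 0.15, adjusted p = 5.96e-09). Mcm2, of the replicative helicase, had 130.1, 118 and 111 CPM in serum vesicles, against 259, 250.3 and 256 CPM in BCS-vacuolated cells (log2 fold change -1.09 ± 0.11, adjusted p = 6.37e-09). Pcna was 1.54-fold lower. The higher members were Pola1, Pola2 and Mcm6, of which none passed without BCS replicate 2 and 1 without BCS replicate 1.

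The letters TTTGAA, the cell cycle homology region that periodic repressor complexes bind, were in 24 of 33 mitosis windows (72.7%) and in 18.3% of all windows. Of the 27 windows of lower genes, 18 held it, as did all 6 windows of members that were not called (Kif4a, Top2a, Mki67, Anln, Smc4 and Cdc25c). The promoter of Cdc20 is shown as the lowest member with a match by adjusted p, on the minus strand of chr5:137255800-137256049, with the letters in capitals.
Cdc20: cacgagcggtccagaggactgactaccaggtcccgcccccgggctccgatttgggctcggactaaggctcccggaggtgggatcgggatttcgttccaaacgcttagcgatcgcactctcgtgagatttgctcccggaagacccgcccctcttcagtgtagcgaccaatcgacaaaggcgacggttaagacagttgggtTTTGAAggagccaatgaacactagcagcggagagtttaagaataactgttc

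Cytosolic ribosomal protein genes had 27 lower and 6 higher of 48 tested (59 listed, 54 in the files; median -0.47), and 3 higher without vesicle replicate 1. Rps2 had 763, 694 and 581 CPM in serum vesicles, against 1145, 1302 and 1318 CPM in BCS-vacuolated cells (log2 fold change -0.89 ± 0.12, adjusted p = 1.54e-06). Rps24 was 2.12-fold lower. These genes have many processed copies, so their counts are uncertain. Nuclear genes of oxidative phosphorylation stood near the background, 13 lower and 8 higher of 43 tested (56 listed, median -0.13). Without vesicle replicate 2 the higher members were 5, and without vesicle replicate 3 or BCS replicate 3 the lower members were 7.

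Of the 13 mitochondrially encoded genes, all tested, 11 were higher and 1 lower (median 0.93). Mt-cyb, cytochrome b, had 3911, 4007 and 4589 CPM in serum vesicles, against 1570.3, 1301 and 1613 CPM in BCS-vacuolated cells (log2 fold change 1.48 ± 0.16, adjusted p = 2.86e-08). Mt-co3 had 4114, 4893 and 4135 CPM in serum vesicles, against 1682, 1451 and 1858 CPM in BCS-vacuolated cells (log2 fold change 1.397 ± 0.16, adjusted p = 5.16e-08). Vesicle libraries were above BCS libraries for both. Mt-nd6, the protein gene on the other strand of the mitochondrial genome, was lower with 516, 671 and 472 CPM in serum vesicles, against 948, 647 and 795 CPM in BCS-vacuolated cells (log2 fold change -0.52 ± 0.16, adjusted p = 0.00877), where vesicle replicate 2 and BCS replicate 2 overlapped, and its sign turned to 0.42 with unstranded counts. The part of mitochondrial RNA content or RNA quality in the other results was not tested. The fit without these genes and the most abundant pair kept 97.8% of calls. That fit only removed their rows, so it cannot decide the question.

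Imprinted growth genes stood near the background, 3 higher (25%) and 4 lower (33.3%) of 12 tested (21 listed, median 0.19), against 27.6% and 26.4% of all genes. Beside Igf2 and Grb10, Sgce had 87.8, 130.2 and 112 CPM in serum vesicles, against 0.509, 33.1 and 0.777 CPM in BCS-vacuolated cells (log2 fold change 3.16 ± 0.81, adjusted p = 0.0052); BCS replicate 2 stood far above its group, and the call was lost when the groups were fitted alone (adjusted p = 0.136) while the value was 7.34 without that library. Cdkn1c (p57), a cyclin-dependent kinase inhibitor, was lower with 6.24, 6.401 and 7.84 CPM in serum vesicles, against 72.6, 110.2 and 49.7 CPM in BCS-vacuolated cells (log2 fold change -3.52 ± 0.39, adjusted p = 2.18e-06). Peg3, a zinc-finger factor, averaged 60.1 ± 15.9 CPM in serum vesicles and 136 ± 66.3 CPM in BCS-vacuolated cells. Ndn (necdin), a growth suppressor, averaged 8.27 ± 1.98 CPM in serum vesicles and 23.5 ± 1.92 CPM in BCS-vacuolated cells, and the lower members were Peg3, Ndn, Cdkn1c and Phlda2. In mice Igf2, Sgce, Peg3 and Ndn are expressed from the paternal allele and Cdkn1c and Phlda2 from the maternal one. The median of the list ran from -0.01 to 0.47 with a library left out.

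Of the markers of cell types outside the endoderm, those of fibroblasts, mesoderm and blood summed to at most 19.6 CPM in a library. Sums reached 33.8 CPM for trophoblast and 101 CPM for neural markers. Fibroblast markers summed to 6.39 to 19.6 CPM in serum vesicles and 4.40 to 6.78 CPM in BCS-vacuolated cells. Col1a2, Dcn, Lum, Postn and Prrx1 of the 14 measured had 0 counts in both. Of 4 tested, Col3a1 and Fbn1 were higher; Col3a1 lost its call without vesicle replicate 2 (adjusted p = 0.257), BCS replicate 2 (0.113) or BCS replicate 3 (0.0567). Fbn1 kept its call under 5 of 13 alternatives, with adjusted p up to 0.305 (without vesicle replicate 3). Trophoblast markers summed to 22.4 to 33.8 CPM and 5.77 to 7.38 CPM, and Cdx2 made up most of the vesicle sum: Elf5, Tfap2c, Hand1, Gcm1, Prl3b1 and Prl3d1, 6 of the 12, had 0 counts in vesicles. Eomes, shared with the mesoderm list, was lower with 0.761, 0.417 and 1.38 CPM in serum vesicles, against 3.56, 5.51 and 5.57 CPM in BCS-vacuolated cells (log2 fold change -2.61 ± 0.39, adjusted p = 4.57e-06).

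Mesoderm markers summed to 1.22 to 4.84 CPM in serum vesicles and 4.07 to 6.47 CPM in BCS-vacuolated cells, with 4 and 2 of 8 at 0. Blood markers summed to 0.461 to 3.34 CPM and 2.42 to 4.07 CPM, with 5 and 3 of 7 at 0, Ptprc and Hbb in both. Neural markers summed to 33.2 to 46.1 CPM in serum vesicles and 30.9 to 101 CPM in BCS-vacuolated cells, with 3 and 6 of 13 at 0. They went both ways: Dcx (doublecortin) had 31.04, 24.6 and 18.2 CPM in serum vesicles, against 0.1696, 1.43 and 0.388 CPM in BCS-vacuolated cells (log2 fold change 5.05 ± 0.45, adjusted p = 2.06e-09; 6.32 without BCS replicate 2). Stmn2 had 3.04, 6.26 and 3.23 CPM in serum vesicles, against 18.3, 75.9 and 18.1 CPM in BCS-vacuolated cells (log2 fold change -3.14 ± 0.65, adjusted p = 0.00131; -2.08 without BCS replicate 2). The part of these cell types in the other results was not tested.

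The other 4 groups place these levels. They share the model but not the libraries of this comparison, and their means are set side by side with no test. Slc9a3 averaged 116 CPM in serum-free vesicles, 0.324 and 0.0456 CPM in CHIR99021-vacuolated cells with and without the sort and 0 CPM in normal cells. Cldn4 averaged 99.5 CPM in serum-free vesicles, 1.63 and 1.305 CPM in CHIR99021-vacuolated cells with and without the sort and 0.3496 CPM in normal cells. Tmprss2 averaged 191 CPM in serum-free vesicles, 8.35 and 7.51 CPM in CHIR99021-vacuolated cells with and without the sort and 0.839 CPM in normal cells. For these 3 genes the serum-free vesicles lay near the serum vesicles, and the other cultures were all under 10 CPM. Pou5f1 averaged 0.746 CPM in serum-free vesicles, 38.2 and 39.8 CPM in CHIR99021-vacuolated cells with and without the sort and 118 CPM in normal cells. Dnmt3l averaged 0.618 CPM in serum-free vesicles, 25.3 and 22.8 CPM in CHIR99021-vacuolated cells with and without the sort and 58.4 CPM in normal cells, so its mean was highest of the 6 groups in BCS-vacuolated cells (172 CPM). Dusp4 averaged 3.35 CPM in serum-free vesicles, 14.997 and 19.9 CPM in CHIR99021-vacuolated cells with and without the sort and 41.2 CPM in normal cells, again below the BCS mean of 84.1 CPM. Lef1 averaged 0.998 CPM in serum-free vesicles, 0 and 0 CPM in CHIR99021-vacuolated cells with and without the sort and 0 CPM in normal cells, against 3.04 CPM in serum vesicles. Cubn averaged 32.7 CPM in serum-free vesicles, 192 and 254 CPM in CHIR99021-vacuolated cells with and without the sort and 344 CPM in normal cells. Hspa5 averaged 578 CPM in serum-free vesicles, 1312 and 1159 CPM in CHIR99021-vacuolated cells with and without the sort and 1363 CPM in normal cells, so both vesicle groups lay below the 4 other groups.

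**Figure D4:**
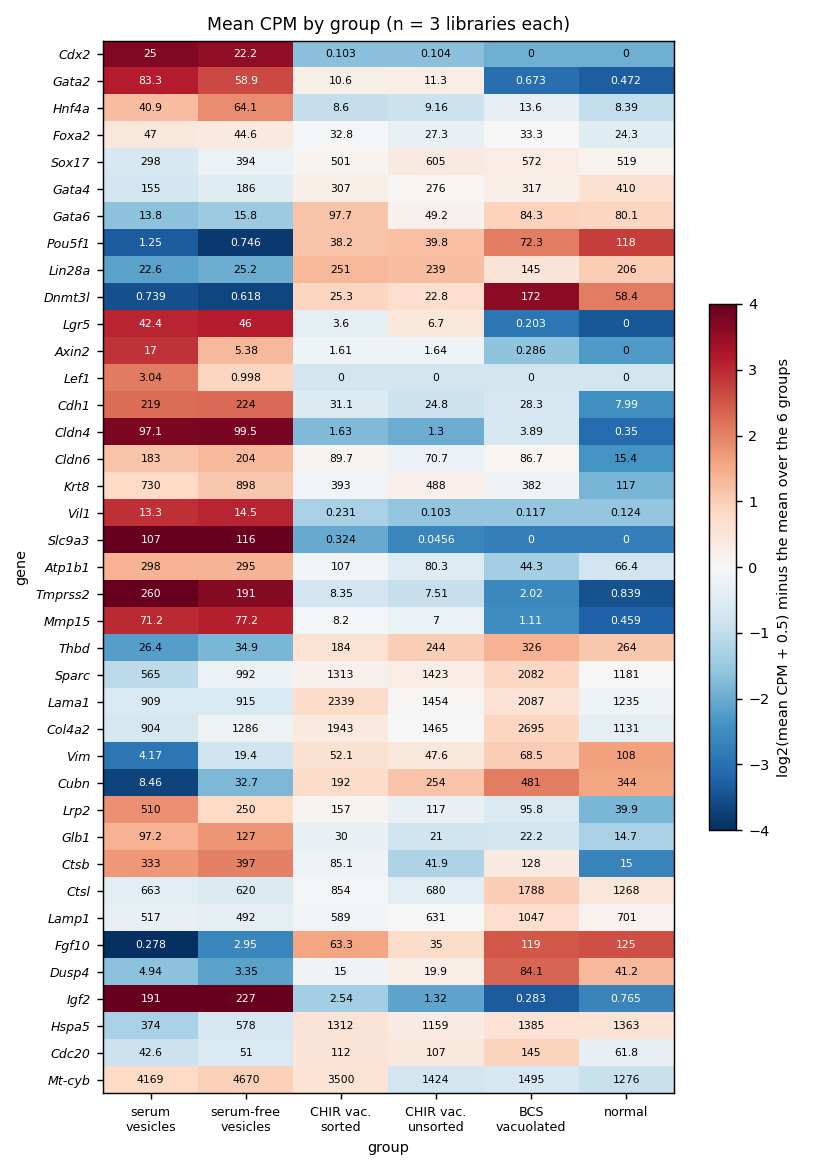
Mean CPM of 39 genes in the 6 groups (n = 3 libraries each, columns), printed in each cell and coloured by log2(mean CPM + 0.5) minus the mean over groups, with colours held at -4 and 4. The vesicle columns share high Cdx2, Lgr5, Cldn4 and Slc9a3 and low Pou5f1, Dnmt3l and Vim, against the BCS-vacuolated and normal columns.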

How the data were processed

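RNA was sequenced from rRNA-depleted directional libraries of 18 rat cultures, per the labels' protocols. The authors deposited raw counts per gene in an unstranded column and 1 column for each strand. Per the submitters' processing notes, the tools were bcl2fastq, Trimmomatic 0.38 and STAR 2.6.1 with genome build rn6; the counting annotation is not given in the sources used here. The column of the sequenced strand was used; the opposite strand held 1.99 to 2.61% as many counts in the 6 libraries.

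Genes passing edgeR 4.0.16's filter for low counts (minimum count 10) were scaled by TMM and fitted by edgeR's quasi-likelihood test with 1 term per group over all 18 libraries, which share 1 estimate of spread (12 residual degrees of freedom). P-values were adjusted by Benjamini-Hochberg over 11503 genes, with a threshold of 0.05. The standard error of a log2 fold change is its size divided by the square root of F. Exact permutation of 3 against 3 libraries cannot give a p below 0.1 and was not used. Where a group had no counts, 3 counts over the group served as its floor; floors and intervals cover counting error only.

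Named genes were the 12 highest and 12 lowest called genes with no overlap between groups and a mean log2 CPM of at least 3, passing over placeholder symbols, up to 3 called members per list and direction by adjusted p, a fixed set of markers, and further list members as examples. The 39 lists hold 1036 genes, 971 of them in the files and 797 tested, of which 239 were higher and 304 lower. The comparison, its lists and its fixed markers were chosen with earlier results of these data known. Before use the fit was run on simulated data. Few genes were changed there, so the run does not cover a comparison with 54.0% of genes called. Promoter windows came from RefSeq (GRCr8), which matched 603 of the 797 genes, taking the first window where a symbol had several; gene coordinates in rn6 were not used here. R 4.3.3, limma 3.58.1 and DESeq2 1.42.0 served for the alternatives and plots: other scaling (RLE), DESeq2, no filter, both groups fitted alone, unstranded counts, thinning to equal counts, removal of Mt- and the pair of most abundant entries, passage as a covariate, the replicate number as a block, and each library left out. Results for a few genes are not reported here.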

Additional observations from a re-analysis of the deposited data

How the results depend on the processing

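The number of called genes stayed within 1.5 times of 6212 under all 15 alternatives, from 5181 with both groups fitted alone (2682 higher, 2499 lower) to 6371 without a filter on low counts (3268 higher, 3103 lower, 20171 genes tested). DESeq2 called 6209 genes, RLE scaling 6213, unstranded counts 6339 and counts thinned to equal totals outside the pair of most abundant entries 5569. Leaving out a library gave 5483 to 6170 calls, 2735 to 3152 higher and 2748 to 3018 lower. The share of calls kept ran from 82.9% with both groups fitted alone to 99.8% with RLE scaling. Replicate numbers did not pair the libraries (correlations of deviations 0.00732, 0.104 and -0.0646 for numbers 1, 2 and 3), and the fit with the replicate number as a block made 6076 calls, 3102 higher and 2974 lower. Of the 202 named genes tested, 185 kept direction and call under every alternative that tested them, which was 13 or 14 of the 15 for some, such as Aqp1 (13) and Lef1 (14). Signs turned for Igf2r, not called to begin with, between -0.64 and 0.43 with a library left out (0.24 without serum vesicle replicate 2), and, with unstranded counts, for Pdzk1 (0.24) and Mt-nd6 (0.42); the cause was not tested. Over all settings the median log2 fold change of all genes ran from 0.011 to 0.0624. List counts and medians stayed the same in 1646 comparisons and moved in 103. Among medians, those of amino acid transporters (-0.35 to -0.05), mesenchymal (-1.49 to -0.82), microvillus (0.90 to 1.11), Wnt (3.35 to 4.10) and imprinted genes (-0.01 to 0.47) were among those that moved with a library left out. Depth limits the low genes: with 1.92 to 4.51 M counts outside the pair of most abundant entries, a gene at 0 in a group could still be present below the floor of 3 counts.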
